A study of Mus musculus with 8 samples.

Results

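Insulin makes fat take up glucose by a short chain of proteins, and 8 genes of that chain are described here in adipose tissue of obese mice: Insr, Irs1, Pik3r1, Akt2, Tbc1d4, Slc2a4, Slc2a1 and Hk2. They were chosen by name for their role, but with earlier results of these data known. Counts of members set beside all probes below are therefore descriptions. The array had 16593 genes with a probe annotated, and every probe annotated to the 8 genes was taken. The samples were 3 from sgp130Fc transgenic mice aged 26 weeks, 3 from IL6 knock-out mice (IL6_KO) aged 25 weeks and 2 from wild-type mice (WT) aged 24 weeks. All had the C57Bl6 background, were made obese by a high-fat diet and had fasted for 5 h. IL-6 is a cytokine of fat, muscle and immune cells, and sgp130Fc is a soluble form of its signal-transducing receptor fused to an antibody Fc part, which blocks signalling through the soluble IL-6 receptor. The fat depot, the sex and the promoter that drives the transgene are not given in the sources used here. Age moved with genotype, so their effects cannot be told apart, and nothing in the labels says that the replicates of a group were separate animals.

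In a fat cell, insulin binds its receptor (Insr), which phosphorylates the docking protein IRS1. The phosphatidylinositol 3-kinase held by its regulatory subunit p85 alpha (Pik3r1) then activates the kinase AKT2, which switches off the brake AS160 (Tbc1d4) so that vesicles carrying the transporter GLUT4 (Slc2a4) reach the surface. GLUT1 (Slc2a1) lets glucose in without insulin and is carried by most cell types, macrophages and endothelium among them, and hexokinase 2 (Hk2) traps the glucose inside as glucose 6-phosphate. Much of the control is by phosphorylation and vesicle movement, which RNA does not show.

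Of the 8 genes, 7 had a probe, 10 probes in all, and 6 genes with 7 probes were above the array's background on at least 2 arrays and were tested. Tbc1d4 had 0 probes annotated to it in the table used and is not analysed here. The Insr probe was above background on 0 of 8 arrays, with detection p-values between 0.0627 and 0.378, so no level of the receptor can be given. Another Akt2 probe (ILMN_1255147) and another Pik3r1 probe (ILMN_3040050) were likewise above background on 0 arrays.

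Of the genes described below, Slc2a1 and Hk2 act one after the other at glucose entry and differed in opposite directions in IL6_KO fat. Irs1, at levels near background, followed Hk2 closely from array to array. The 250 bases before the annotated starts of Slc2a1, Hk2 and Irs1 are shown for that reason. They run 5′ to 3′ on the strand of the gene and come from the RefSeq table of GRCm38.p6. Capitals mark ACGTG or its complement CACGT, the core that hypoxia response elements share with the CACGTG form of the E-box.
Slc2a1: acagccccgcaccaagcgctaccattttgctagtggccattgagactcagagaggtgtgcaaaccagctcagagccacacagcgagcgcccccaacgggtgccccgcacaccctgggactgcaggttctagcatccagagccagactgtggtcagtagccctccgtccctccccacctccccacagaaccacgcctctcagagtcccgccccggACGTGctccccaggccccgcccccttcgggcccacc
Hk2: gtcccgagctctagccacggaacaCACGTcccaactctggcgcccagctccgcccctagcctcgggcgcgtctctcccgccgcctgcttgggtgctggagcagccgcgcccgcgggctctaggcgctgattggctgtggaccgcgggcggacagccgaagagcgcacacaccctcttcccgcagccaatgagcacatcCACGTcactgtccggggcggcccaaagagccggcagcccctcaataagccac
Irs1: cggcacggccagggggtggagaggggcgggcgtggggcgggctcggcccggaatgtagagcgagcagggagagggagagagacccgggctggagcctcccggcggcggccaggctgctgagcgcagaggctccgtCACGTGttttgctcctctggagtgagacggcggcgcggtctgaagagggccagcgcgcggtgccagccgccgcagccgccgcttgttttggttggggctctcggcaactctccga
The Slc2a1 window is chr4:119108495-119108744 on the plus strand, and its 1 match begins 36 bases before the start. That of Hk2 is chr6:82774455-82774704 on the minus strand, with matches 226 and 52 bases before the start. For Irs1 the window is chr1:82291440-82291689 on the minus strand, where the motif reads the same on both strands as a full CACGTG, 115 bases before the start. The core occurred in 16.6% of 32851 such windows in the table. Among the 6 members listed there (10 windows), 4 genes held it in 1 window each, and the windows of Pik3r1 and Tbc1d4 did not. The fourth was Akt2, which is not shown because its level did not follow the others. Pik3r1 followed Hk2 nearly as closely as Irs1 did (r = 0.926 against 0.961), lacks the core and is not shown. The windows shown were thus picked with these levels known and all hold the core, so they do not link it to the levels. Slc2a4 and Insr are not listed in the table. A match is a description of these letters and shows no binding.

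On the 8 arrays 48.6% to 52.1% of 25697 probes were above background, and the median intensity lay between 109.1 and 145. IL6_KO replicate 2 stood apart, with a mean correlation of 0.944 with the other arrays over the tested probes, where the others had 0.964 to 0.973. Results that rest on it are therefore also given without it. The probe of Il6 itself (ILMN_1243601) lay at or near background everywhere. Its log2 intensities were 4.78, 4.62 and 4.46 on the sgp130Fc arrays, 5.17, 5.07 and 5.16 on the arrays labelled IL6_KO and 4.40 and 4.47 on the WT arrays. It was above background on 2 arrays, IL6_KO replicates 1 and 3, and on neither WT array. Where the probe lies relative to the deleted part is not given in the sources used here, and the level in WT leaves nothing for a deletion to lower. The genotype labels are therefore not checked by it, and IL6_KO below means the arrays labelled so, whose directions all rest on those labels.

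In IL6_KO fat the insulin-responsive transporter, hexokinase 2, p85 alpha and IRS1 lay lower than in WT, and GLUT1 lay higher, but 0 of the 6 tested members passed the threshold of an adjusted p of 0.05 (limma). Over all 14141 tested probes 35 passed, which is 0.248%. At an unadjusted p under 0.05 there were 5 of 6 members, 4 lower and 1 higher, against 20.6% of all probes (10.8% lower and 9.75% higher). The ranges of the groups did not overlap for 5 of 6 members, against 38.7% of all probes. Irs1 is in both member counts. It was above background on 1 of 3 IL6_KO, 3 of 3 sgp130Fc and 2 of 2 WT arrays. Irs1 was thus tested because of the groups where it is higher, and is no support for these counts. The median log2 difference of the 6 members was -0.44, and that of all probes 0.01. Without IL6_KO replicate 2, 3 of 6 members reached the unadjusted threshold, against 14.5% of all probes, and the members' median was -0.39.

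Slc2a4 (ILMN_1222333; chromosome 11, 69942286 to 69948216 in GRCm38.p6) had normalized log2 intensities of 7.49, 6.39 and 7.70 on IL6_KO replicates 1, 2 and 3, against 8.92 and 8.56 on WT replicates 1 and 2. Every IL6_KO array lay below both WT arrays, and IL6_KO replicate 2 was lowest of all 8. The means were 7.19 ± 0.70 in IL6_KO (SD, n = 3) and 8.74 ± 0.26 in WT (n = 2). The log2 difference was -1.54 ± 0.39 (SE), a 2.92-fold lower level (95% interval of the log2 difference -2.43 to -0.66, adjusted p = 0.109). By size it was number 159 among the 14141 probes. Without IL6_KO replicate 2 it was -1.14 (adjusted p = 0.136), and without IL6_KO replicate 3 it was -1.80 and passed (adjusted p = 0.0410).

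Slc2a1 (ILMN_1258159; chromosome 4, 119108745 to 119137330) differed in the other direction. On IL6_KO replicates 1, 2 and 3 it had 9.12, 9.89 and 8.47, against 7.82 and 8.41 on the WT arrays. The gap between the lowest IL6_KO array and the higher WT array was small, and the array with the least Slc2a4, IL6_KO replicate 2, had the most Slc2a1. Means were 9.16 ± 0.71 in IL6_KO (n = 3) and 8.12 ± 0.42 in WT (n = 2). This gave a log2 difference of 1.04 ± 0.36 (interval 0.22 to 1.87, adjusted p = 0.167). Without IL6_KO replicate 2 it was 0.68 (adjusted p = 0.306), and without IL6_KO replicate 3 it was 1.39 and passed (adjusted p = 0.0403).

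Hk2 (ILMN_1239397; chromosome 6, 82725025 to 82774454) was measured with less spread. Its levels were 10.38, 10.05 and 10.59 on the IL6_KO arrays, against 11.25 and 10.98 on the WT arrays. All 3 IL6_KO arrays lay below both WT arrays. From means of 10.34 ± 0.27 in IL6_KO (n = 3) and 11.11 ± 0.19 in WT (n = 2) came a log2 difference of -0.78 ± 0.19, or 1.71-fold lower (interval -1.22 to -0.33, adjusted p = 0.109). It was -0.63 without IL6_KO replicate 2 (adjusted p = 0.181), and -0.90 without IL6_KO replicate 3, where it passed (adjusted p = 0.0427). Leaving out IL6_KO replicate 3 made 778 probes pass in place of 35, so these 3 member calls come with many more calls among all probes.

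**Figure D1:**
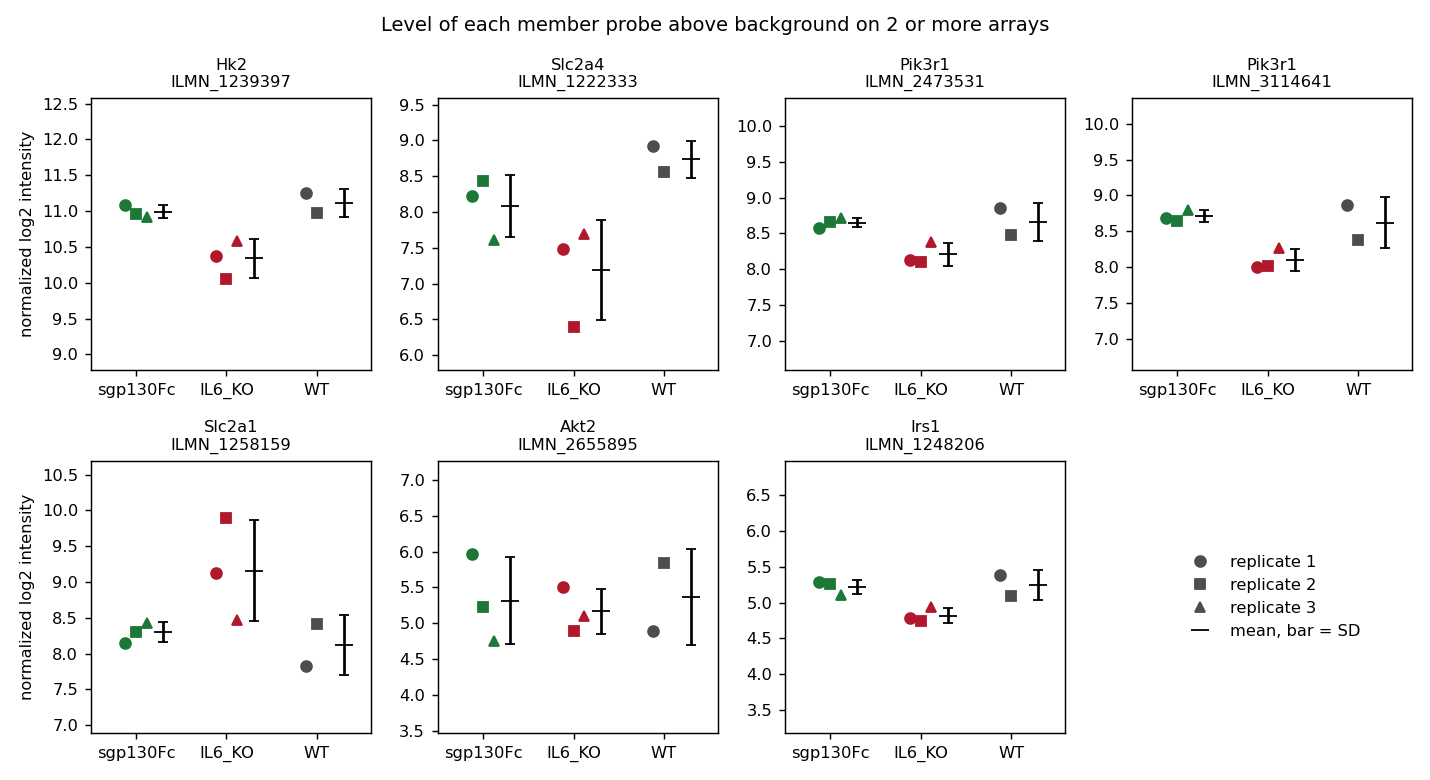
Normalized log2 intensity of the 7 tested member probes on each array, by group (sgp130Fc, IL6_KO, WT), with marker shapes for replicate numbers and the mean with its SD beside the points. All panels span the same number of log2 units. The 3 IL6_KO arrays lie below both WT arrays for Hk2, Slc2a4, Irs1 and both Pik3r1 probes and above them for Slc2a1, while the groups overlap for Akt2.

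The signalling genes between receptor and transporter differed by less. Pik3r1 (chromosome 13, 101680761 to 101768217) was read by 2 probes that ran together across the 8 arrays (r = 0.982). Its probe ILMN_2473531, the brighter on average over the 8 arrays, had 8.13, 8.11 and 8.39 on the IL6_KO arrays, against 8.85 and 8.48 on the WT arrays, with no overlap. The difference was -0.46 ± 0.18 (interval -0.86 to -0.06, adjusted p = 0.196). The other probe, ILMN_3114641, gave -0.52 ± 0.19 (adjusted p = 0.179). Without IL6_KO replicate 2 the probes gave -0.41 and -0.48.

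Irs1 (ILMN_1248206; chromosome 1, 82233105 to 82291439) lay near background and was above it on 1 of 3 IL6_KO arrays and on both WT arrays. It had 4.78, 4.74 and 4.94 on the IL6_KO arrays, against 5.39 and 5.10 on the WT arrays. The groups did not overlap, and the difference was -0.42 ± 0.16 (interval -0.80 to -0.05, adjusted p = 0.200). At so low a level the constant added before the logarithm compresses a difference, and without background correction it was -0.13.

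Akt2 (ILMN_2655895; chromosome 7, 27591552 to 27640826) showed no order by genotype. The levels were 5.50, 4.89 and 5.10 on the IL6_KO arrays, of which 2 were above background, against 4.89 and 5.84 on the WT arrays, of which 1 was. WT replicate 1 equalled the lowest IL6_KO array and WT replicate 2 lay above all 3. With a difference of -0.21 ± 0.38 (interval -1.08 to 0.66, adjusted p = 0.801), the interval takes in sizeable changes either way.

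In sgp130Fc fat the same genes lay close to WT, with Slc2a4 as the one member whose groups did not overlap. Of the 6 tested members 0 passed (limma), and 0 reached an unadjusted p under 0.05, where 13 of 14141 probes passed (0.0919%) and 8.23% reached the unadjusted threshold. Non-overlapping ranges were seen for 1 of 6 members and for 28.2% of all probes. The median log2 difference was -0.04, against -0.01 over all probes. This comparison and that of IL6_KO with WT share both WT arrays.

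Slc2a4 had 8.22, 8.44 and 7.60 on sgp130Fc replicates 1, 2 and 3, against 8.92 and 8.56 on the WT arrays. sgp130Fc replicate 3 was well below the other 2, down at the level of the IL6_KO arrays. The difference was -0.65 ± 0.39 (interval -1.53 to 0.23, adjusted p = 0.713), and without sgp130Fc replicate 3 it was -0.41.

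Hk2 stood at 11.09, 10.96 and 10.91 in sgp130Fc, against 11.25 and 10.98 in WT, with a difference of -0.13 ± 0.19 (interval -0.57 to 0.31, adjusted p = 0.899). Its sgp130Fc arrays lay within or just below the WT pair. Slc2a1 had 8.15, 8.31 and 8.43 in sgp130Fc, against 7.82 and 8.41 in WT, and differed by 0.18 ± 0.36 (interval -0.64 to 1.00, adjusted p = 0.930). The WT arrays were farther apart than the group means, and leaving out WT replicate 1 turned the sign, to -0.12.

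For Pik3r1 the probe ILMN_2473531 had 8.58, 8.65 and 8.71 in sgp130Fc, against 8.85 and 8.48 in WT (difference -0.02 ± 0.18, interval -0.42 to 0.38), and the other probe differed by 0.09 ± 0.19. Irs1 had 5.28, 5.26 and 5.11 in sgp130Fc, all above background, against 5.39 and 5.10 in WT (difference -0.03 ± 0.16, interval -0.40 to 0.35). Akt2 had 5.96, 5.23 and 4.76 in sgp130Fc, of which 2 were above background, against 4.89 and 5.84 in WT (difference -0.05 ± 0.38). For all 3 genes the WT arrays lay on both sides of the sgp130Fc mean, and the sign of the difference changed when single arrays were left out. These intervals bound the differences and do not show that the groups were equal.

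**Figure D2:**
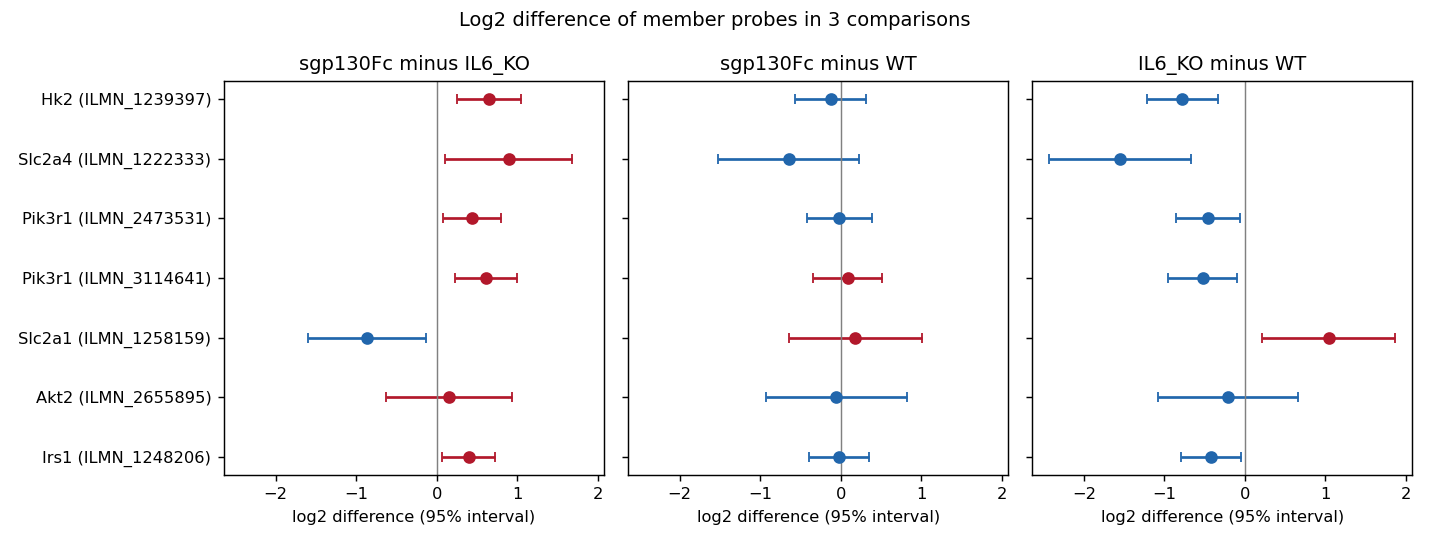
Log2 difference with its 95% interval (limma) for the 7 tested member probes, in sgp130Fc minus IL6_KO, sgp130Fc minus WT and IL6_KO minus WT, with red for positive and blue for negative values. Intervals of 6 probes lie to one side of 0 in IL6_KO minus WT and in sgp130Fc minus IL6_KO, and 0 do so in sgp130Fc minus WT.

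Set directly against each other, sgp130Fc had higher mean levels than IL6_KO of Hk2, Pik3r1, Irs1 and Slc2a4 and a lower one of Slc2a1. In sgp130Fc minus IL6_KO 0 of 6 members passed (limma), against 179 of 14141 probes (1.27%). At an unadjusted p under 0.05 there were 5 of 6 members, 4 higher and 1 lower in sgp130Fc, against 17.8% of all probes (9.36% higher and 8.44% lower), and ranges did not overlap for 4 of 6 members, against 25.8% of all probes. Irs1 is again in both member counts, and is no support for them, as it was tested because of its sgp130Fc and WT arrays. The median of the members was 0.42, and -0.01 over all probes. Without IL6_KO replicate 2, only 1 of 6 members reached the unadjusted threshold, against 12.5% of all probes, and the members' median was 0.37. This comparison shares its IL6_KO arrays with the one against WT, so the opposite signs of the 2 comparisons are not independent.

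Hk2 was 1.57-fold higher in sgp130Fc than in IL6_KO, at 0.65 ± 0.17 on the log2 scale (interval 0.25 to 1.04, adjusted p = 0.118). The lowest sgp130Fc array, at 10.91, lay above the highest IL6_KO array, at 10.59. Pik3r1 differed by 0.44 ± 0.16 (adjusted p = 0.199) and 0.61 ± 0.17 (adjusted p = 0.127) on its 2 probes, also without overlap. Irs1 differed by 0.40 ± 0.15 (adjusted p = 0.211), its 3 sgp130Fc arrays all above the 3 IL6_KO arrays.

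The transporters differed in opposite directions here too. Slc2a4 differed by 0.90 ± 0.35 (interval 0.11 to 1.68, adjusted p = 0.229), with sgp130Fc replicate 3 at 7.60 below IL6_KO replicate 3 at 7.70. Slc2a1 differed by -0.86 ± 0.33 (interval -1.60 to -0.13, adjusted p = 0.217), with all sgp130Fc arrays below the IL6_KO arrays by a narrow margin, 8.43 against 8.47 at the edge. Without IL6_KO replicate 2 both were smaller, at 0.50 for Slc2a4 and -0.50 for Slc2a1. Akt2 differed by 0.15 ± 0.34 and overlapped. When each array was weighted by its estimated quality, 5 members passed, all but Akt2, at adjusted p between 0.0134 and 0.0379. With those weights 1730 probes passed, IL6_KO replicate 1 counted with a weight of 3.52 and IL6_KO replicate 2 with 0.381.

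Across the 8 arrays 4 members varied together and Slc2a1 against them. Hk2, Irs1 and Pik3r1 correlated with one another at r between 0.926 and 0.961, and Slc2a4 with them at 0.778 to 0.924. Irs1 lay near background and was above it on 6 of 8 arrays, which limits what its correlations can say. Slc2a1 correlated with these 4 genes at -0.960 to -0.890, and Akt2 with the rest at -0.182 to 0.337. Without IL6_KO replicate 2 the correlation of Slc2a1 was -0.787 with Slc2a4 and -0.927 with Hk2. These are descriptions over 8 arrays, which share the differences between the groups and the make-up of each sample.

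Marker genes of several cell types differed in level between the groups as well. In bulk tissue, fewer cells of a type and less RNA per cell cannot be told apart. On each array the tested markers of adipocytes, 10 of the 12 listed, had a mean level of 11.11 to 11.18 in sgp130Fc, 9.60 to 10.99 in IL6_KO and 11.37 to 11.44 in WT. The 9 of 11 macrophage markers with a tested probe had 10.86 to 11.16 in sgp130Fc, 11.24 to 11.95 in IL6_KO and 10.39 to 10.63 in WT. Endothelial markers, 8 of 10, had 9.81 to 9.93 in sgp130Fc, 8.60 to 9.31 in IL6_KO and 9.77 to 10.04 in WT. These 3 lists did not overlap between IL6_KO and the other groups. Among single probes, ranges did not overlap for 38.7% of all probes in IL6_KO minus WT and 25.8% in sgp130Fc minus IL6_KO. Smooth muscle markers, 4 of 5, had 8.53 to 8.88 in sgp130Fc, 7.54 to 8.14 in IL6_KO and 8.78 to 9.02 in WT. Fibroblast markers, 6 of 6, had 11.33 to 11.70 in sgp130Fc, 11.56 to 11.99 in IL6_KO and 11.05 to 11.31 in WT. Mesothelial markers, 5 of 5, had 5.77 to 6.86 in sgp130Fc, 6.635 to 6.94 in IL6_KO and 5.39 to 6.71 in WT. Lymphoid markers, 4 of 8, had 5.265 to 6.40 in sgp130Fc, 5.57 to 6.83 in IL6_KO and 6.08 to 7.48 in WT. In both of these lists the WT arrays lay far apart and overlapped with IL6_KO. In IL6_KO minus WT the median was -0.82 for adipocyte markers (10 of 10 negative, 1 passed), -0.77 for endothelial (8 of 8, 0 passed) and -0.94 for smooth muscle markers (4 of 4, 0 passed). It was 0.91 for macrophage markers (9 of 9 positive), 0.63 for fibroblast (6 of 6) and 0.62 for mesothelial markers (5 of 5), with 0 passing in each. Over all probes 0.248% passed in this comparison, and the median was 0.01. The macrophage marker Itgam was above background on 3 of 3 IL6_KO and 0 of 2 WT arrays, so it was tested because of IL6_KO. The adipocyte marker Fabp4 was above it on 0 arrays of either group. The mesothelial marker Krt19 was above it on 2 of 3 IL6_KO, 0 of 3 sgp130Fc and 1 of 2 WT arrays, so it too was tested because of IL6_KO. The signs of Itgam, Fabp4 and Krt19 are therefore no support for the counts of signs above. Without IL6_KO replicate 2 the medians in IL6_KO minus WT were -0.40 for adipocyte, -0.53 for endothelial and -0.73 for smooth muscle markers. They were then 0.82 for macrophage, 0.41 for fibroblast and 0.81 for mesothelial markers. With all 8 arrays, the medians in sgp130Fc minus WT were -0.20 for adipocyte, 0.04 for endothelial and -0.13 for smooth muscle markers. They were 0.41 for macrophage, 0.24 for fibroblast and 0.21 for mesothelial markers. In sgp130Fc minus IL6_KO 3 endothelial markers and 1 smooth muscle marker passed, all higher, against 1.27% of all probes. Their part in the members' differences was not tested.

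Side by side with the WT mean, IL6_KO replicate 2 had Slc2a4 at -2.35, Slc2a1 at 1.77 and Hk2 at -1.06, with an adipocyte marker median of -1.77 and a macrophage marker median of 1.26. IL6_KO replicates 1 and 3 had Slc2a4 at -1.25 and -1.04, Slc2a1 at 1.00 and 0.35 and Hk2 at -0.74 and -0.53, with adipocyte medians of -0.50 and -0.31 and macrophage medians of 0.89 and 0.75. Of the 8 arrays, IL6_KO replicate 2 was thus farthest from the WT mean in the genes and marker medians just given. This did not hold for every member and list. Akt2 was farthest on sgp130Fc replicate 3 (-0.61), and the median of erythroid markers on IL6_KO replicate 1 (-3.185). On sgp130Fc replicate 3 Slc2a4 was at -1.13 and the adipocyte median at -0.16. Single adipocyte markers varied around that median, and one of them, Fabp4, was above background on 2 of 8 arrays only, both sgp130Fc.

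**Figure D3:**
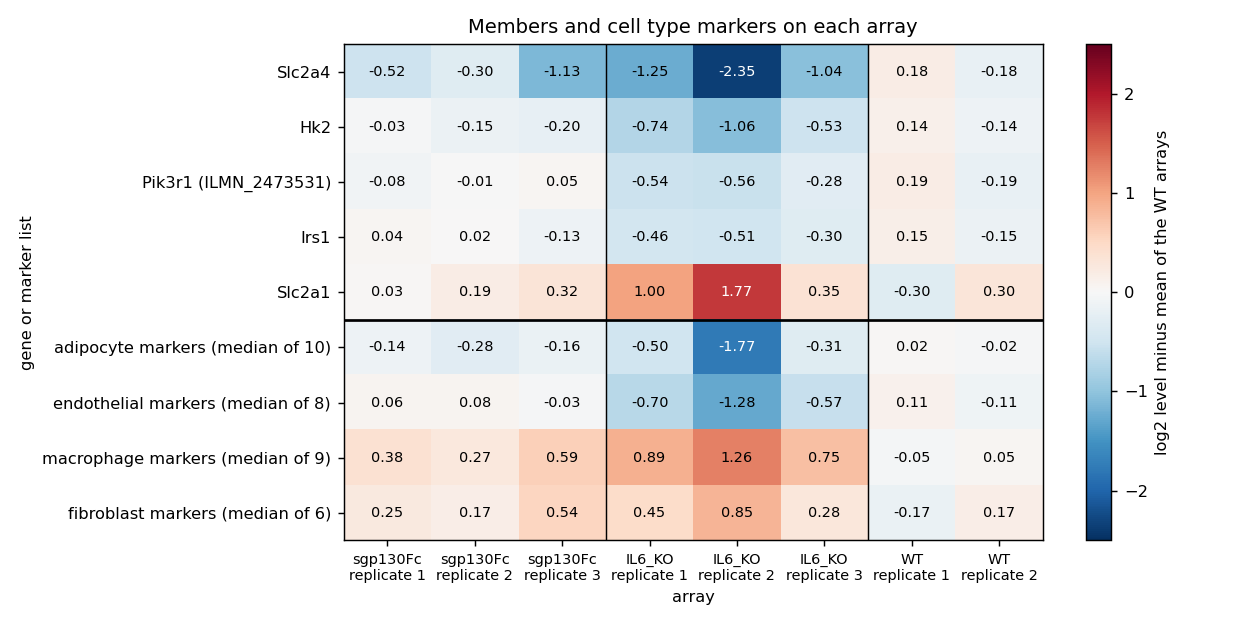
Log2 level minus the mean of the WT arrays on each of the 8 arrays, for 5 members (above the line) and for the median of the tested adipocyte, endothelial, macrophage and fibroblast markers (below it), with red above and blue below the WT mean. IL6_KO replicate 2 has the lowest Slc2a4 and adipocyte values and the highest Slc2a1 and macrophage values of the 8 arrays, and sgp130Fc replicate 3, at -1.13, is lower in Slc2a4 than IL6_KO replicate 3, at -1.04.

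Among single markers, the adipocyte hormone gene Adipoq differed by -0.65 in IL6_KO minus WT (adjusted p = 0.313) and the lipid droplet coat gene Plin1 by -1.43 (adjusted p = 0.159). Adgre1, which encodes a surface receptor of macrophages, differed by 0.91 (adjusted p = 0.0881) and the endothelial receptor gene Tie1 by -1.13 (adjusted p = 0.0833). In sgp130Fc minus WT, Adipoq differed by -0.22, Plin1 by -0.45, Adgre1 by 0.71 and Tie1 by -0.06. Markers that passed, named after their values were seen, were Retn, the gene of the hormone resistin in mouse fat cells, which fell by 1.94 in IL6_KO minus WT (adjusted p = 0.0467), and in sgp130Fc minus IL6_KO the endothelial genes Emcn (0.83), Esam (0.91) and Gpihbp1 (1.46) and the smooth muscle myosin gene Myh11 (1.17). Retn averaged 5.50 in sgp130Fc, 5.10 in IL6_KO, where 1 of 3 arrays was above background, and 7.04 in WT. The heme synthesis gene Alas2, of red cell precursors, fell by 3.95 in IL6_KO minus WT (adjusted p = 0.0406). The beta globin gene Hbb-bt, of red blood cells, fell by 2.52 on the log2 scale (adjusted p = 0.0250), and both were higher in sgp130Fc than in IL6_KO (adjusted p = 0.0370 for Alas2 and 0.0103 for Hbb-bt). Skeletal muscle also uses Slc2a4 and Hk2. Of 7 muscle markers only Acta1 and Mb were tested, the other 5, among them Ckm, Myh1 and Myh4, having no probe above background on 2 arrays. Acta1 (skeletal actin) lay at 9.06, 9.77 and 9.52 in sgp130Fc, 8.88, 6.43 and 7.87 in IL6_KO and 9.21 and 8.82 in WT.

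Further genes of the insulin cascade did not pass in any comparison. Of 27 further genes from the receptor to AKT and its targets 19 were tested and 0 passed (limma). At an unadjusted p under 0.05 there were 3 in IL6_KO minus WT (20.6% of all probes), 2 in sgp130Fc minus WT (8.23% of all probes) and 2 in sgp130Fc minus IL6_KO (17.8% of all probes). In IL6_KO minus WT 12 of the 19 were negative. Their median was -0.18 in IL6_KO minus WT and 0.01 in sgp130Fc minus WT. Foxo1, the transcription factor that AKT keeps out of the nucleus, averaged 7.32 in IL6_KO and 8.20 in WT (difference -0.88 ± 0.23, adjusted p = 0.115), and 8.08 in sgp130Fc. The second docking protein gene Irs2 differed by -0.52 ± 0.38 in IL6_KO minus WT (adjusted p = 0.464), and Cav1, the caveolin of the fat cell surface, by -0.62 ± 0.33 (adjusted p = 0.315). Pde3b, the phosphodiesterase by which insulin restrains lipolysis, was above background on 4 of 8 arrays and differed by 0.16 ± 0.20. Akt1 had no probe above background on 2 arrays.

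Of 14 brakes on insulin signalling 11 were tested (limma). At an unadjusted p under 0.05 there were 1 in IL6_KO minus WT (20.6% of all probes), 1 in sgp130Fc minus WT (8.23%) and 3 in sgp130Fc minus IL6_KO (17.8%). In sgp130Fc minus IL6_KO 1 of the 11 passed, against 1.27% of all probes. Socs3, which encodes an IL-6-induced protein that also blocks the insulin receptor and its docking proteins, was the 1 that passed, lower in sgp130Fc than in IL6_KO. It had 6.70, 7.29 and 6.94 on the sgp130Fc arrays, against 8.21, 8.32 and 8.56 on the IL6_KO arrays and 7.67 and 8.09 on the WT arrays. All sgp130Fc arrays lay below WT and all IL6_KO arrays above it. The difference between sgp130Fc and IL6_KO was -1.38 ± 0.20, 2.61-fold lower (adjusted p = 0.0174). It missed the threshold without IL6_KO replicate 1 (adjusted p = 0.0623) and without sgp130Fc replicate 1 (0.0852) or 3 (0.0882). Against WT it differed by -0.90 in sgp130Fc (adjusted p = 0.332) and 0.48 in IL6_KO (adjusted p = 0.261).

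Ptpn1, the phosphatase PTP1B that dephosphorylates the insulin receptor, averaged 8.85 in sgp130Fc, 9.75 in IL6_KO and 8.99 in WT. Its differences were 0.76 ± 0.30 in IL6_KO minus WT (adjusted p = 0.205) and -0.89 ± 0.27 in sgp130Fc minus IL6_KO (adjusted p = 0.148). Grb14, an adaptor that inhibits the receptor, differed by -0.11 in IL6_KO and 0.53 in sgp130Fc against WT, with overlap in both.

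Of 18 genes of GLUT4 vesicles and their traffic 13 were tested and 0 passed in any comparison, with medians between 0.00 and 0.07 and unadjusted counts of 2 in IL6_KO minus WT, 1 in sgp130Fc minus WT and 0 in sgp130Fc minus IL6_KO (over all probes 20.6%, 8.23% and 17.8% in these comparisons). In IL6_KO minus WT 7 were positive and 6 negative, between -0.60 and 0.68. Tbc1d1, the relative of Tbc1d4 that brakes the same vesicles in muscle, averaged 6.08 in sgp130Fc, 6.39 in IL6_KO and 5.71 in WT, and its difference was 0.68 ± 0.20 in IL6_KO minus WT (adjusted p = 0.131). Trarg1, a membrane protein of GLUT4 vesicles in fat, differed by -0.60 ± 0.46 and Rab10, the GTPase that drives the vesicles outward, by -0.12 ± 0.20 in the same comparison. Lnpep had no probe annotated.

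Among 13 other glucose transporters and hexokinases 9 were tested (limma). At an unadjusted p under 0.05 there were 3 in IL6_KO minus WT (20.6% of all probes), 1 in sgp130Fc minus WT (8.23%) and 2 in sgp130Fc minus IL6_KO (17.8%). In sgp130Fc minus IL6_KO 1 of the 9 passed, against 1.27% of all probes. This was Slc2a6, which encodes GLUT6, a transporter found in leukocytes. It had 6.78, 6.24 and 6.75 on the sgp130Fc arrays, against 7.87, 8.73 and 7.98 on the IL6_KO arrays and 7.65 and 7.43 on the WT arrays. The 3 groups did not overlap, with WT in the middle. The difference in sgp130Fc minus IL6_KO was -1.60 ± 0.25, 3.04-fold lower (adjusted p = 0.0233). The call was lost without IL6_KO replicate 1 (adjusted p = 0.0582) and without sgp130Fc replicate 1 (0.0852), 2 (0.115) or 3 (0.0886), with no detection filter (0.0661) and with the replicate number as a block (0.0696).

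Hk3, the hexokinase of myeloid cells, had 9.05, 9.04 and 9.43 in sgp130Fc, 10.29, 10.93 and 9.81 in IL6_KO and 8.56 and 9.03 in WT. Its IL6_KO arrays were all above the others, opposite to Hk2, and the difference from WT was 1.55 ± 0.31 (adjusted p = 0.0777). Hk1, the housekeeping hexokinase, differed by 0.54 ± 0.32 in IL6_KO minus WT and -0.06 ± 0.32 in sgp130Fc minus WT. The transporter genes Slc2a3 and Slc2a8 differed by -0.28 and -0.47 in IL6_KO minus WT and by -0.03 and -0.10 in sgp130Fc minus WT.

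Downstream of the hexokinases, 0 of 12 tested glycolysis genes of 17 listed and 0 of 8 tested glycogen genes of 11 passed in any comparison. Glycolysis genes had 3 members at an unadjusted p under 0.05 in IL6_KO minus WT (median -0.08), 0 in sgp130Fc minus WT (median 0.01) and 4 in sgp130Fc minus IL6_KO (median 0.06). Pfkp, a phosphofructokinase, averaged 8.38 in sgp130Fc, 9.19 in IL6_KO and 8.80 in WT. Lactate dehydrogenase A, Ldha, averaged 12.78 in sgp130Fc, 12.46 in IL6_KO and 12.70 in WT. Glycogen genes had 3 in the first of these comparisons (median -0.38), 0 in the next (median -0.22) and 2 in the last (median 0.21). Over all probes the shares were 20.6%, 8.23% and 17.8% in these comparisons. Ppp1r3c, which targets a phosphatase to glycogen, had 10.17, 9.44 and 10.19 in sgp130Fc, 8.94, 7.63 and 8.68 in IL6_KO and 9.21 and 9.37 in WT. The 3 groups did not overlap, and sgp130Fc minus IL6_KO was 1.52 ± 0.34 (adjusted p = 0.0762). Glycogen synthase, Gys1, differed by -0.40 ± 0.27 in IL6_KO minus WT.

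Transcription factors known to act on Slc2a4 lay below WT in both genotypes on their medians, -0.64 in IL6_KO and -0.29 in sgp130Fc, with 0 of 10 passing in any comparison. At an unadjusted p under 0.05 there were 6 of 10 in IL6_KO minus WT (20.6% of all probes), 2 in sgp130Fc minus WT (8.23%) and 4 in sgp130Fc minus IL6_KO (17.8%). Klf15, a factor that induces Slc2a4, had 5.93, 6.19 and 6.07 in sgp130Fc, 5.60, 5.28 and 5.60 in IL6_KO and 6.29 and 6.40 in WT, without overlap between the groups. In IL6_KO minus WT it differed by -0.85 ± 0.17 (adjusted p = 0.0777). Srebf1, the lipogenic factor, differed by -1.01 ± 0.22 (adjusted p = 0.0881). Mlxipl, which encodes the glucose-sensing factor ChREBP, differed by -1.16 ± 0.46 (adjusted p = 0.203).

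**Figure D4:**
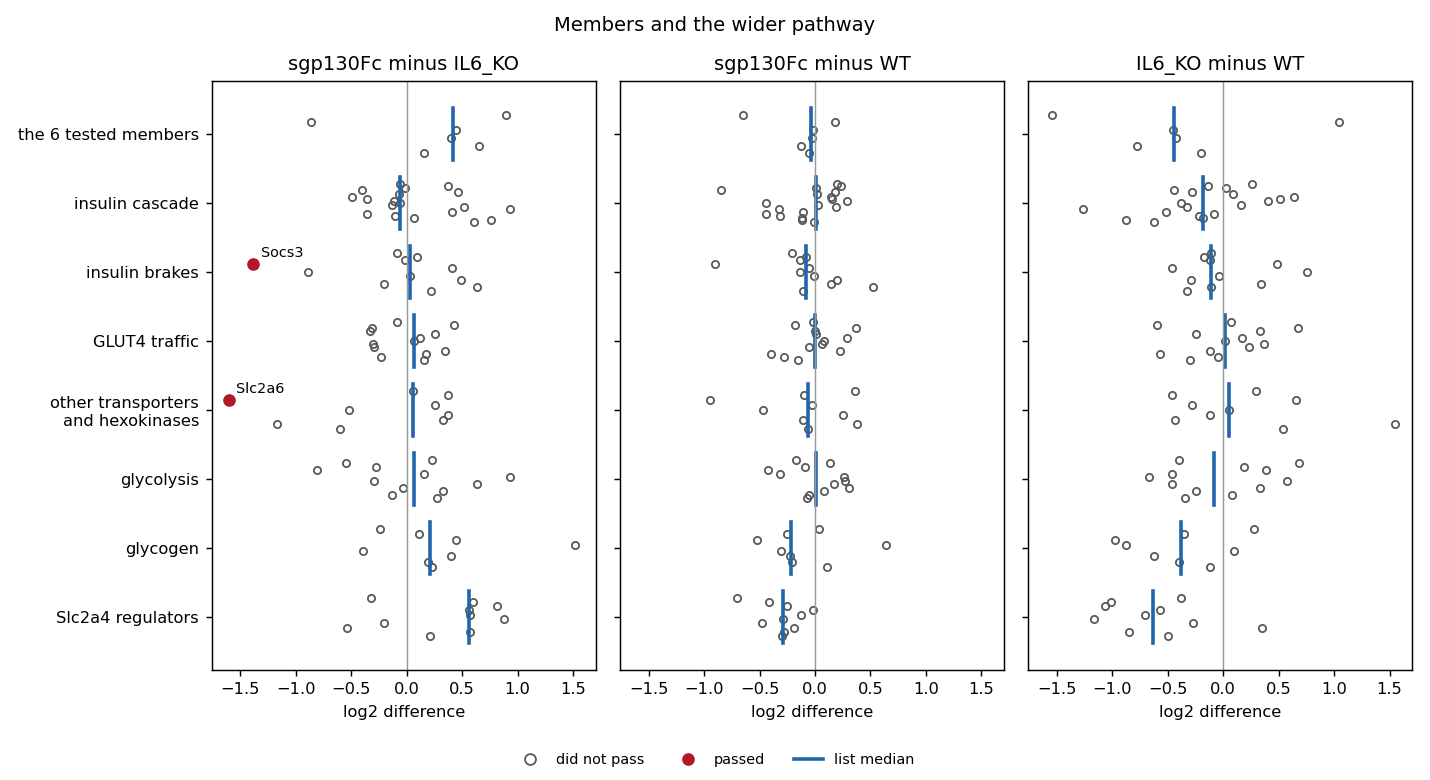
Log2 difference of each tested gene in the 8 gene lists in the 3 comparisons (panels), with open circles for genes that did not pass, filled red circles for those that did, and a blue bar at each list's median. Socs3 and Slc2a6 in sgp130Fc minus IL6_KO are the genes that passed, and the members' medians are 0.42, -0.04 and -0.44 in the 3 panels.

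The genes whose level followed Slc2a4 most closely over the 8 arrays, among 9802 genes, were Aldh5a1 (r = 0.993), Rtn2 (0.992), Mecr (0.985), Gatd3a (0.984) and St3gal3 (0.983). Aldh5a1 encodes a mitochondrial aldehyde dehydrogenase of GABA breakdown, and Mecr an enzyme of mitochondrial fatty acid synthesis. Rtn2, a reticulon of the endoplasmic reticulum, had 8.75, 8.89 and 8.35 in sgp130Fc, 8.09, 7.01 and 8.45 in IL6_KO and 9.46 and 9.23 in WT. Its highest arrays were the WT pair, its lowest was IL6_KO replicate 2, and it differed by -1.50 ± 0.38 in IL6_KO minus WT (adjusted p = 0.109). In all, 362 genes reached r over 0.9 with Slc2a4, or 124 without IL6_KO replicate 2, where Aldh5a1 stayed at 0.983. The correlations describe these arrays, which share group differences and sample make-up.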

How the data were processed

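RNA of 8 adipose samples was hybridised to Illumina bead arrays, 1 sample per array. The deposited intensity of 25697 probes is linear and not normalized, each with a detection p-value of its array, per the file headers. The deposited log2 values are normalized by the authors and have column medians of 5.04. GenomeStudio and limma are named without versions, per the submitters' processing notes. Intensities were background-corrected, quantile-normalized and turned to log2 with neqc (offset 16) of limma 3.58.1 in R 4.3.3, which gave values within 0.0548 of the deposited log2 values. A probe entered the fit when 2 arrays or more gave it a detection p below 0.05, which kept 14141 probes of 9803 genes. Gene names came from the array annotation (23978 probes with 1 symbol, 1719 with none, 0 with several) and coordinates from RefSeq.

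A linear model with 3 groups was fitted to all 8 arrays (lmFit, eBayes; two-sided, 8.98 degrees of freedom including 3.98 of prior), with Benjamini-Hochberg adjustment over all tested probes within each comparison and a threshold of 0.05. It was also run on simulated data with normal noise and planted differences. That run checks the code and not the comparisons reported here. The number of arrays limits the precision, and p-values reflect only how these samples vary, which may be technical. The brightest tested probe stood for a gene in lists. A difference between log2 values understates changes near background.

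The members and the lists were chosen with earlier results of these data known. The genes named are all members, every gene of the 7 pathway lists that passed, fixed genes of those lists, the 5 genes most correlated with Slc2a4 and 6 cell type markers. Further markers that passed were named after their values were seen. Alternatives tried were the deposited log2 values, quantile normalization with the background kept, scaling to the 75th percentile, array weights, an offset of 50, an intensity trend, all probes, probes detected on all 8 arrays, the compared groups alone, a replicate block, leaving out each array with the normalization kept, and the mean of a gene's probes.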

Additional observations from a re-analysis of the deposited data

How the results depend on the processing

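Of the 7 member probes, those of Slc2a4, Slc2a1, Irs1, Pik3r1 (both) and Hk2 kept their sign in IL6_KO minus WT and in sgp130Fc minus IL6_KO under every alternative run; Akt2 did not. The count of members passing was 0 under all alternatives in sgp130Fc minus WT. In IL6_KO minus WT it was 0 to 3 with single arrays left out (3 without IL6_KO replicate 3), and in sgp130Fc minus IL6_KO it was 5 with array weights, whose estimation stopped before it converged, and 0 otherwise. The cause of these changes was not tested. Without background correction the members' median was -0.24 in IL6_KO minus WT and 0.23 in sgp130Fc minus IL6_KO. With probes detected on all 8 arrays, which drops Irs1 and Akt2, it was -0.62 in IL6_KO minus WT. With single arrays left out it ranged from -0.61 (without WT replicate 2) to -0.39 in IL6_KO minus WT, from -0.19 (without WT replicate 2) to -0.0097 in sgp130Fc minus WT and from 0.37 to 0.49 in sgp130Fc minus IL6_KO.

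Signs turned for small differences only. With array weights Akt2 was at 0.020 in IL6_KO minus WT and 0.088 in sgp130Fc minus WT, and Irs1 at 0.0080 in sgp130Fc minus WT. Over single arrays left out, sgp130Fc minus WT ran from -0.12 to 0.47 for Slc2a1, -0.17 to 0.12 for Irs1, -0.20 to 0.17 and -0.16 to 0.33 for the Pik3r1 probes, -0.26 to 0.0093 for Hk2 and -0.53 to 0.42 for Akt2. Akt2 ran from -0.68 to 0.27 in IL6_KO minus WT and from -0.17 to 0.43 in sgp130Fc minus IL6_KO.

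The replicate numbers were not taken to pair arrays, as nothing in the labels says so. Deviations from the group means correlated between -0.353 and 0.180 for same-numbered arrays and between -0.361 and 0.361 for others. With 2 WT arrays the WT deviations mirror each other, so these values cannot settle whether arrays were paired. With the number as a replicate block Akt2 was at 0.10 in sgp130Fc minus WT, 0 members passed in any comparison, and probes passing were 12 in IL6_KO minus WT in place of 35, 5 in sgp130Fc minus WT in place of 13 and 79 in sgp130Fc minus IL6_KO in place of 179. Over all alternatives they ranged from 5 to 778, from 3 to 28 and from 24 to 1730 in these comparisons. For Insr, Irs1, Akt2 and Pde3b, signal at or near background limits what can be read.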
